A study of Caenorhabditis elegans with 2 samples.

Results

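The genes described here encode the protein machinery that starts and extends translation and that loads transfer RNAs (tRNAs) with amino acids. They were taken by name from the protein-coding genes of the Ensembl annotation of the Caenorhabditis elegans assembly WBcel235. A gene was taken when its symbol began with eif-, eef-, ife-, ifg- or iftb-, or was 1 letter followed by ars- and a number. This gave 69 of 19973 genes on the 6 nuclear chromosomes. These were 31 initiation factor genes, 6 elongation factor genes and 32 aminoacyl-tRNA synthetase genes. The symbol rule used no measured value, but the genes were chosen with earlier results of these data known. The study mapped the binding of ZTF-25, named as a zinc finger protein, by chromatin immunoprecipitation followed by sequencing (ChIP-seq). Its single group was whole young adult worms of strain RW12287, aged 63 hours, whose own ztf-25 gene on chromosome V held a CRISPR insertion of TY1, EGFP and 3xFLAG (allele st12287). Chromatin was pulled down through the tag with an anti-GFP antibody. The worms had been bleached and starved as first-stage larvae to bring them into step. There were 2 biological replicates and no second condition. No untagged sample was analysed here, and whole worms mix all tissues, so binding in a single tissue cannot be told apart from weak binding in many.

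Initiation factors bring the small ribosomal subunit, the initiator tRNA and the capped messenger RNA together and find the start codon. Elongation factors then deliver each loaded tRNA to the ribosome and move the ribosome along. Aminoacyl-tRNA synthetases join each amino acid to its own tRNAs, and in animals one set works in the cytoplasm and another, also encoded in the nucleus, in mitochondria. Protein synthesis goes on in nearly all growing cells, and the ribosomal protein genes share this task.

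The sequences at the peaks that the results turn on are shown first. They come from the RefSeq genome of WBcel235, the same assembly as the ce11 of the deposited lists, and are written 5′ to 3′ on the plus strand without annotated UTR bases. The base at the summit, the highest point of a peak, is in capitals. The first is the whole stretch between the divergent genes ears-2 and uncp-18 at chrIV:390469-390559, which holds the summit with the highest signal of the 69 genes. The others are the summits in the first part of ife-3 at chrV:7552-7652, eef-1A.1 at chrIII:6971273-6971373 and eef-1G at chrV:10966154-10966254, the summit between genes before eif-3.B at chrII:14795123-14795223, and that before gars-1 at chrIII:5164153-5164253. For yars-2 only the bases just upstream of the gene, chrIV:4712625-4712661, are shown, since the summit lies in its 5′ UTR, and the capitals mark a match to TGGCNNAGT that is taken up with the sequence words.
ears-2: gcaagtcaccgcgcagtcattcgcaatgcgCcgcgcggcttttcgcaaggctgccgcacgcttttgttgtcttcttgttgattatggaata
yars-2: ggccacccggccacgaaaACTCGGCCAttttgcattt
eif-3.B: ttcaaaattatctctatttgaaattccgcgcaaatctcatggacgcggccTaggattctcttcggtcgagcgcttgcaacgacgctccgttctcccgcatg
eef-1G: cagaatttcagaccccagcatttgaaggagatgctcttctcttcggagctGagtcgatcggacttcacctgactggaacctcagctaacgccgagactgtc
eef-1A.1: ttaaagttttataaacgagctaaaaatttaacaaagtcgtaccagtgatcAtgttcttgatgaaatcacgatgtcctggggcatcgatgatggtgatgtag
ife-3: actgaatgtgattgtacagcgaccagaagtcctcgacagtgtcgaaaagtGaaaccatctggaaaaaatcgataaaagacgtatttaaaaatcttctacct
gars-1: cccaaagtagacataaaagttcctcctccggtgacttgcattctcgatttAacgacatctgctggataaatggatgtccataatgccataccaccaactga

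A gene was called marked when a summit lay between 1000 bp upstream and 500 bp downstream of one of its annotated 5′ ends. In the conservative list, whose peaks repeat between both libraries, 5 of the 69 genes were marked, or 7.25%, beside 2.82% of all protein-coding genes. They were ears-2, gars-1, ife-3, eif-3.I and eef-1A.1, so each of the 3 functional classes was represented. Among the 1092 peaks of this list by signal, ears-2 ranked 49, eif-3.I 840, ife-3 964, eef-1A.1 1015 and gars-1 1032. All but ears-2 thus lay below the list's median signal of 93.9. The combined list held the same 5 and 7 more, which were yars-2, cars-1, fars-3, eif-1.A, eif-3.B, eif-2Bgamma and eef-1G, and thus marked 12 of 69 or 17.4% beside 3.64% of all genes. The list of replicate 1 alone marked ears-2, fars-3 and eif-2Bgamma, 3 of 69 or 4.35% beside 1.4% of all genes. The list of replicate 2 alone marked ears-2, 1 of 69 or 1.45% beside 0.861%. These shares are counts with no test. With a window from 500 bp upstream to 200 bp downstream, only ears-2 stayed in the conservative count, 1.45% beside 1.79% of all genes, so the members' share then fell below that of all genes.

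**Figure D1:**
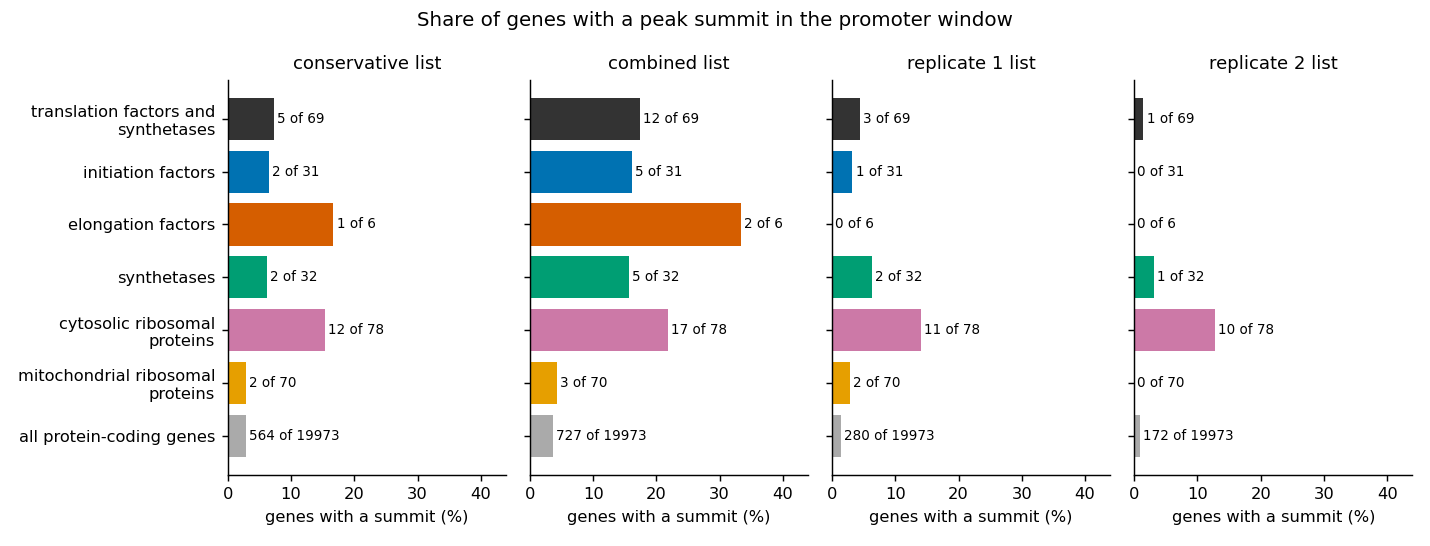
Bars give the percent of genes with a peak summit in the window from 1000 bp upstream to 500 bp downstream of a 5′ end, in each of 4 thresholded lists, with the number of genes written beside each bar. In the conservative list the 69 genes reach 7.25%, between the 15.4% of cytosolic ribosomal protein genes and the 2.82% of all protein-coding genes.

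The order of the neighbouring gene families was the same in the conservative and the combined list. Of the 78 cytosolic ribosomal protein genes, 12 were marked in the conservative list and 17 in the combined list. Of the 70 mitochondrial ribosomal protein genes, 2 and 3 were marked. The translation factor and synthetase genes lay between these families in both lists, but in the list of replicate 2 they had 1 marked gene where the cytosolic ribosomal protein genes had 10. No test of the difference between the families was made.

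Among the synthetases, ears-2 stood first. It encodes the glutamyl-tRNA synthetase that RefSeq names as mitochondrial and nondiscriminating, a form that in human mitochondria and many bacteria also loads tRNA for glutamine with glutamate. Its peak, at chrIV:390361-390636 in WBcel235, had a signal of 197.6 in the conservative list, where it ranked 49 of 1092 peaks. Signal is the authors' own value per peak, with a scale that is not stated. Replicate 1 gave a signal of 104 at this place and replicate 2 gave 83.2. It was the highest signal of the 69 genes in each replicate, and ears-2 was the one gene of the 69 in all 4 thresholded lists. The summit lay between genes, 31 bp upstream of ears-2 and 61 bp upstream of uncp-18 on the other strand. In the list of replicate 1 it lay 3 bp upstream of ears-2 and 89 bp upstream of uncp-18. In that of replicate 2 it lay 11 bp inside ears-2, in its 5′ UTR, and 103 bp upstream of uncp-18. The lists do not say which of the genes the peak belongs to. The irreproducible discovery rate (IDR), which measures how poorly a peak's rank repeats between the libraries, was 8.8e-05 for this peak. Within the highest synthetase signals the gap was wide, since the next, fars-3, had 79.8.

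Glycyl-tRNA synthetase is encoded by gars-1, the other synthetase gene in the conservative list. Its peak at chrIII:5164065-5164340 had a signal of 68.9, with 42.3 in replicate 1 and 33.1 in replicate 2. The summit lay 576 bp upstream of gars-1, in a coding exon of the neighbouring gene T10F2.2, and ranked 1032 of 1092. No other annotated 5′ end lay nearer. Its IDR of 0.00915 was close to the highest in the conservative list, 0.01.

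The combined list, but not the conservative one, held peaks for yars-2, cars-1 and fars-3, which encode a tyrosyl-tRNA synthetase, the cytoplasmic cysteinyl-tRNA synthetase and the beta subunit of phenylalanyl-tRNA synthetase. The yars-2 summit lay 13 bp inside the gene, in its 5′ UTR, with a signal of 72.7, and the replicates were nearly equal at 37.1 and 35.2. The cars-1 summit lay between genes, 70 bp upstream of the 5′ end, with a signal of 70.9, and the replicates gave 46.7 and 26.7. The fars-3 summit lay 352 bp upstream, in the 3′ UTR of zyg-9, with a signal of 79.8. There replicate 1 gave 61.6 and replicate 2 gave 18.1, a ratio of 3.40, and the IDR between the libraries was 0.199. This peak was also in the list of replicate 1 alone. The yars-2 and cars-1 peaks had IDRs of 0.0114 and 0.0230, just outside the conservative list.

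Many amino acids have 2 synthetase genes with numbered symbols, and their highest ranked signals could be set side by side. The ranked list holds peaks far below the thresholds, so most genes have a value in it. For glutamate, ears-2 had 197.6 and ears-1 had 54.4. For tyrosine, yars-2 had 72.7 and yars-1 had no ranked peak in its window. For alanine, arginine, serine and proline the genes of a pair were within 10 units of each other, as with aars-2 at 55.5 and aars-1 at 50.4. The pairs for isoleucine, asparagine and leucine were further apart, with 45.6 for iars-1 and 26.5 for iars-2, 44.3 for nars-1 and 28.96 for nars-2, and 32.6 for lars-1 and 17.98 for lars-2. For aspartate, dars-1 had 32.01 and dars-2 had no ranked peak in its window. Of the phenylalanine genes, fars-3 at 79.8 stood above fars-1 at 46.2 and fars-2 at 32.1. The 4 synthetases that RefSeq names as mitochondrial, ears-2, rars-2, aars-1 and pars-2, ranged from 44.6 to 197.6 with a median of 50.6. The 10 named as cytoplasmic ranged from 18.2 to 70.9 with a median of 44.7, and the other 18 carry no compartment in their product names.

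**Figure D2:**
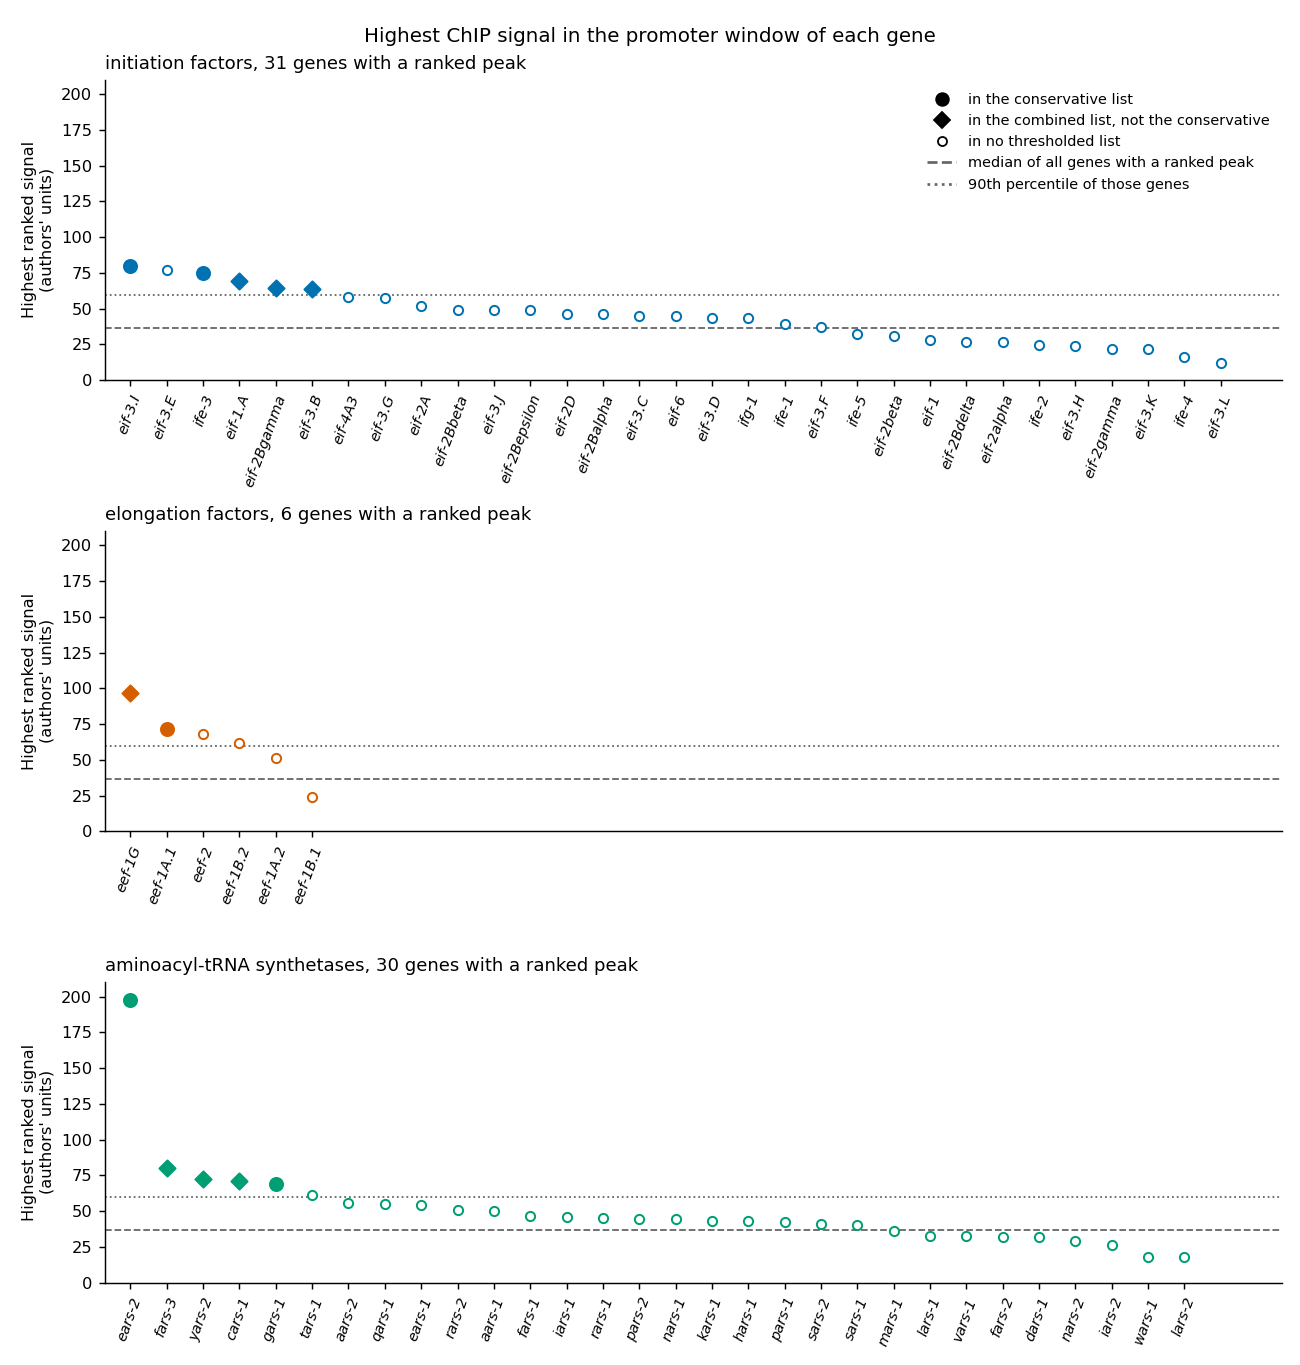
Each point is 1 gene, placed by the highest signal of any ranked peak in its window in the authors' units, with the genes of each class in order. Filled points are genes in a thresholded list, and ears-2 at 197.6 stands apart from the next gene, eef-1G at 96.6.

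The 31 initiation factor genes held 2 marked genes in the conservative list, 6.45%, and 5 in the combined list, 16.1%. One of them was ife-3, which encodes an eIF4E protein, the factor that binds the cap of messenger RNA. Its peak at chrV:7464-7739, close to the left end of the chromosome, had a signal of 74.5, with 47.5 in replicate 1 and 33.5 in replicate 2. The summit lay 220 bp inside the gene, in a coding exon. The other 4 genes for eIF4E proteins were in no thresholded list, with ranked signals of 38.9 for ife-1, 32.4 for ife-5, 24.3 for ife-2 and 16.1 for ife-4. So ife-3 had the highest signal of the 5 by a wide margin, while eif-4A3, which encodes an RNA helicase of the exon junction complex, had 58.2 and ifg-1, which encodes the scaffold eIF4G, had 43.1.

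The other marked initiation gene of the conservative list was eif-3.I, which encodes a subunit of eIF3, the large complex that holds the small subunit ready. Its peak at chrI:2487751-2488026 had a signal of 79.99, with 48.8 in replicate 1 and 32.2 in replicate 2. The summit lay in an intron 2028 bp from the outermost 5′ end and 515 bp upstream of a second annotated 5′ end within the gene. With outermost 5′ ends alone, eif-3.I was no longer marked, and 4 of 69 genes were.

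Of the 11 genes for eIF3 subunits, eif-3.B was the other marked one, in the combined list only. Its summit lay between genes, 231 bp upstream of the 5′ end, with a signal of 64.0, and the replicates gave 38.8 and 29.2. In no list was eif-3.E marked, although its ranked signal of 77.2 was the highest of all unmarked genes and its libraries were nearly equal at 35.6 and 34.8. That summit lay 209 bp upstream of the 5′ end, with an IDR of 0.0142. At the other end of the family stood eif-3.K at 21.8 and eif-3.L at 11.9, the lowest value of all 67 genes with a ranked peak. The signals of the eIF3 genes thus spanned the whole range of the initiation factors, with a median of 44.7.

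The factors that scan for the start codon were represented by eif-1.A and eif-1. The eif-1.A gene, for eIF1A, counted as marked in the combined list through a summit 997 bp upstream, at the very edge of the window. That summit lay 37 bp inside the neighbouring gene H06H21.37 and 440 bp upstream of ubxn-6, and had a signal of 68.9, with 43.0 in replicate 1 and 26.2 in replicate 2. The eif-1 gene had 27.8 in the ranked list.

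The initiator tRNA is carried by eIF2, a trimer recharged with GTP by the exchange factor eIF2B. None of the 5 genes for eIF2 subunits and the related proteins eIF2A and eIF2D was marked in any list, and their ranked signals ran from 21.9 for eif-2gamma to 52.03 for eif-2A. Of the 5 genes for eIF2B subunits, eif-2Bgamma was marked in the combined list and in the list of replicate 1. Its peak, 910 bp upstream of the gene in an intron of C15F1.5, lay within 200 bp of 3 genes annotated as noncoding, sup-39, mir-1831 and C15F1.14. Its signal was 64.4 in the combined list, but 60.4 in replicate 1 and 13.7 in replicate 2, the most unequal pair of the 69 genes, with an IDR of 0.527. It was also the one marked peak with repeated sequence, since 20.7% of its 50-base words occur elsewhere in the genome, against 0% at the other marked peaks. The part of these features in the difference between the libraries was not tested. The anti-association factor gene eif-6 was unmarked, with 44.6.

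The 6 elongation factor genes had the highest median ranked signal of the 3 classes, 64.7, beside 44.6 for the initiation factors and 44.4 for the synthetases. The only one in the conservative list was eef-1A.1, for eEF1A, the factor that brings loaded tRNA to the ribosome. Its peak at chrIII:6971185-6971460 had a signal of 71.5, with 44.97 in replicate 1 and 35.9 in replicate 2. The summit lay 389 bp inside the gene in a coding exon, and also 930 bp upstream of rfc-4. A second peak of eef-1A.1 in the combined list, 188 bp inside the gene, had a signal of only 2.94.

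The near-identical gene eef-1A.2 on the X chromosome was in no thresholded list and had a ranked signal of 51.1, 273 bp inside the gene. The highest signal in its window in the list of replicate 2 was 28.2 at this place. That in the list of replicate 1 was 23.3 at another peak, upstream of the gene. In the ranked list of both libraries, the peak inside the gene had signals of 25.7 and 28.2 in its library columns, which do not name a replicate. At the ears-2 peak these columns held 104 and 83.2, the values of replicates 1 and 2 in that order. The 23.3 of replicate 1 counts only peaks of its own list with a summit in the window. Genes so alike can share reads, and how the authors placed such reads is not given in the sources used here. None of the 227 words of 50 bases in the peaks of either gene occurred elsewhere in the genome.

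The highest signal of the class was at eef-1G, which encodes the gamma subunit of the complex that recharges eEF1A with GTP. Its combined-list peak at chrV:10966066-10966341 had a signal of 96.6, with 56.2 in replicate 1 and 27.6 in replicate 2, and an IDR of 0.0138. The summit lay in a coding exon, 231 bp downstream of the nearest 5′ end and 485 bp from the outermost one, and 665 bp upstream of ctf-4. For the beta subunit genes, eef-1B.2 had a ranked signal of 61.5 with libraries of 32.0 and 33.7, and eef-1B.1 had 24.1. The translocation factor gene eef-2 had 67.8 with an IDR of 0.530. Neither beta subunit gene nor eef-2 was in a thresholded list.

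The ranked peaks of the elongation genes lay mostly within the genes. Taken from 1000 bp upstream of the outermost 5′ end to the 3′ end, the summit of the highest ranked peak lay inside the gene for 6 of 6 elongation factors. The same was so for 26 of 31 initiation factors, 23 of 31 synthetases with a peak and 67.7% of all protein-coding genes with one. The gene bodies offer more bases than the upstream stretch, and the median gene length was 2160 bp for the elongation factors and 2096 bp for all these genes. In eef-1A.1 the summit of the highest such peak, 75.3, lay 1681 bp into a gene of 1687 bp, and the peak ran on past the 3′ end. In the conservative list 3 of the 5 summits lay inside the marked gene itself (eef-1A.1, ife-3 and eif-3.I), and in the combined list 6 of 13 did. The 13 include both peaks of eef-1A.1. The same share over all marked genes was not counted, so these counts have no background beside them.

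**Figure D3:**
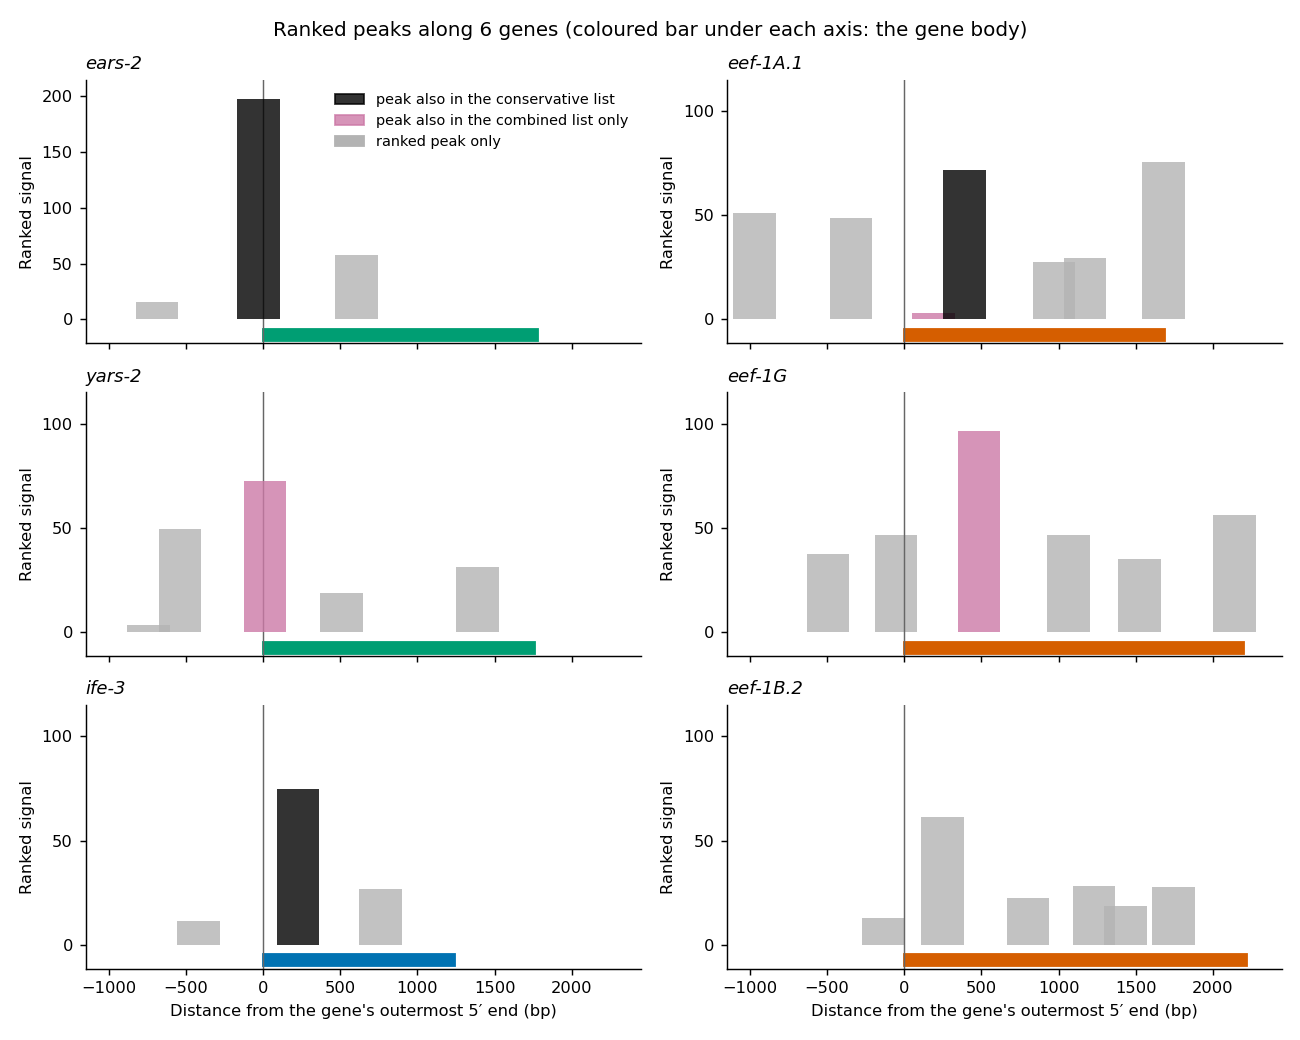
Bars are ranked peaks along 6 genes, placed by distance in bp from the outermost 5′ end and as wide as the peak, with the ranked signal in the authors' units as height. The highest peak straddles the 5′ end in ears-2 and yars-2 and lies inside the gene in ife-3, eef-1G and eef-1B.2. In eef-1A.1 it straddles the 3′ end, with its summit just inside the gene.

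By position the classes differed in direction, as a count. The highest ranked summit in the window lay downstream of the nearest 5′ end for 5 of 6 elongation factors, 16 of 31 initiation factors and 8 of 30 synthetases. Over all genes with a ranked peak this share was 37.7%. Among the 5 conservative members, ears-2 alone had its summit within 200 bp of an annotated 5′ end. Of the 7 further members of the combined list, yars-2 and cars-1 had. The other 9 marked genes had theirs between 220 and 997 bp away, leaving aside the second, low peak of eef-1A.1. These distances were not counted over all marked genes, so they have no background and do not set the members apart.

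**Figure D4:**
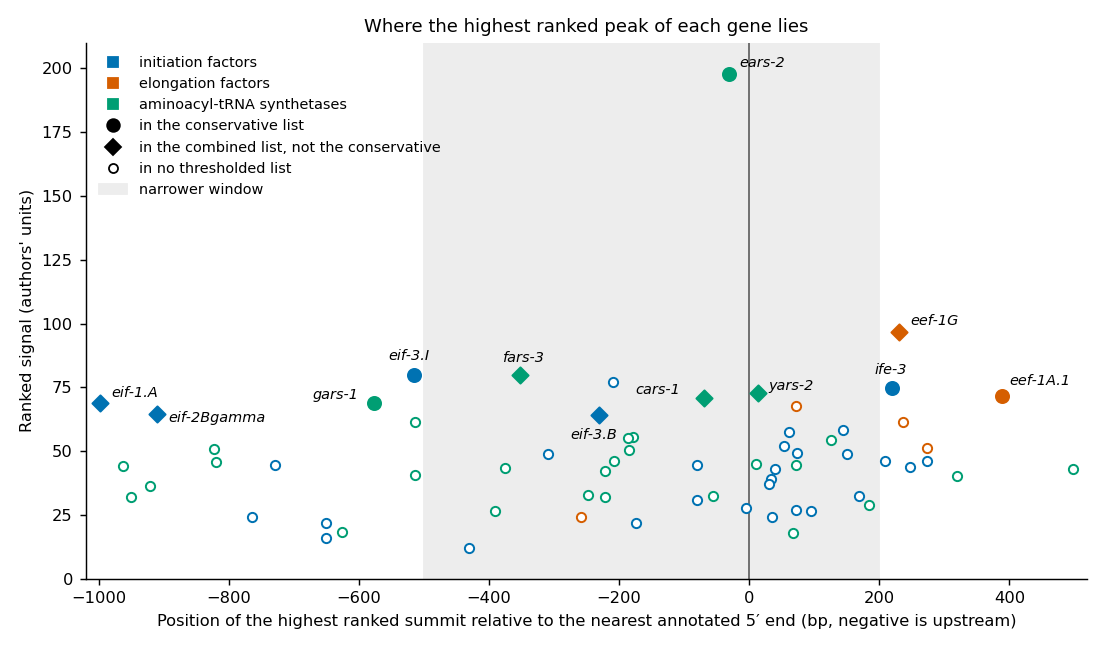
Each point is 1 gene, with the position of its highest ranked summit relative to the nearest annotated 5′ end in bp (negative is upstream) and the signal of that peak in the authors' units. Grey marks the window from 500 bp upstream to 200 bp downstream, inside which ears-2 at 31 bp upstream is the only gene of the conservative list.

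Over the whole group, 67 of 69 genes had a ranked peak in the window, and dars-2 and yars-1 had none. This is 97.1%, beside 82.8% of all protein-coding genes and 98.7% of the cytosolic and 92.9% of the mitochondrial ribosomal protein genes. The highest ranked signal had a median of 44.7 beside 36.4 for the 16539 protein-coding genes with such a peak. It was above the median of all these genes for 46 of the 67, or 68.7% beside 50%, and in their top 10% for 16, or 23.9% beside 10%. At an IDR of 0.05 or lower, 14 of 69 genes had a ranked peak in the window, 20.3% beside 6.78%. The windows of the 69 genes were of nearly the same extent as those of all genes, with means of 1899 bp and 1800 bp. For the 55 unmarked genes with a ranked peak, the signal ran from 11.9 to 77.2 with a median of 43.1. The highest unmarked were eif-3.E at 77.2, eef-2 at 67.8, eef-1B.2 at 61.5, tars-1, for threonyl-tRNA synthetase, at 61.3, and eif-4A3 at 58.2. The lowest were eif-3.L at 11.9, ife-4 at 16.1 and lars-2, for a leucyl-tRNA synthetase, at 17.98.

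The libraries ranked the genes only loosely alike. Both had a ranked peak in the window for 54 of the 69 genes, and across these genes Spearman's rho between the libraries was 0.42, beside 0.35 across the 9554 protein-coding genes with a peak in both. Genes are not independent replicates, and the values of both libraries come from the same kind of list. The highest peak in a window need not be the same peak in both libraries. Replicate 1 was higher for 45 of the 54 genes, 83.3% beside 67.4% of all genes. The members' medians were 32.1 in replicate 1 and 20.7 in replicate 2, beside 25.6 and 21.5 for all genes with a peak in both. In replicate 2 the members' median thus lay slightly below that of all genes. More than 3 times higher in replicate 1 were fars-3 and eif-2Bgamma, 3.7% of the 54 genes beside 1.59% of all genes. Replicate 2 was the higher for 9 genes, among them eef-1B.2 and eif-2A. The lists hold no read counts, so library depth is not known, and no scale common to both libraries is stated.

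**Figure D5:**
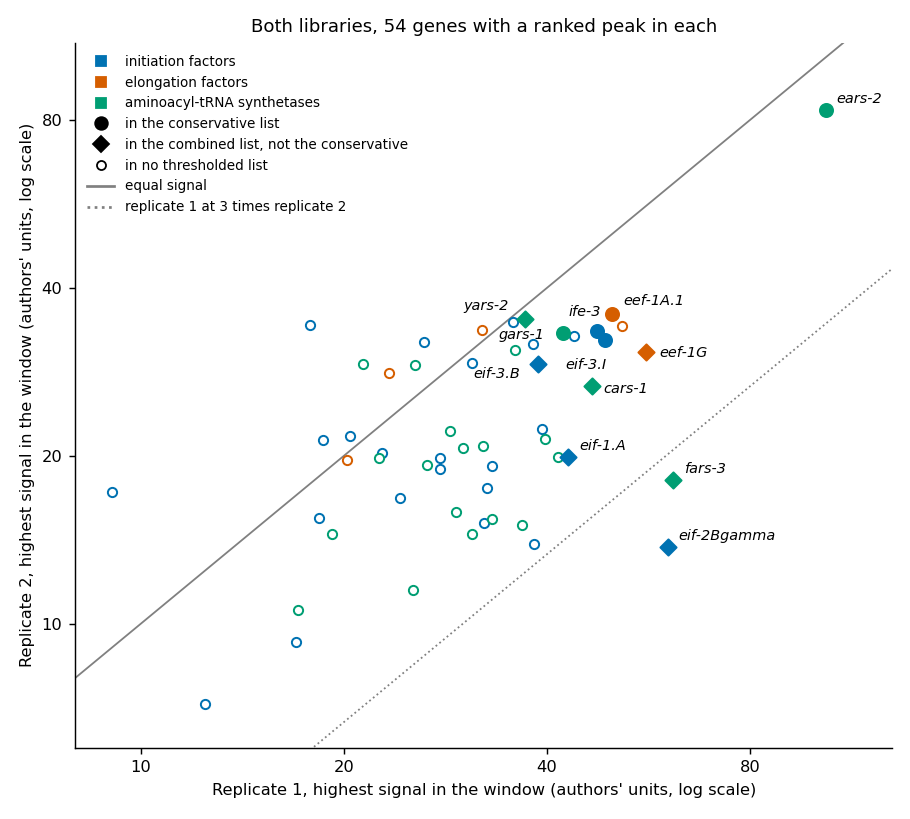
Each point is 1 of 54 genes, with its highest signal in the window in replicate 1 on the horizontal axis and in replicate 2 on the vertical axis, in the authors' units on log scales. Most points lie below the line of equal signal, ears-2 is the highest on both axes, and fars-3 and eif-2Bgamma lie beyond the dotted line where replicate 1 is 3 times replicate 2.

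Genes of the same pathway outside the symbol rule were counted in the same way. Of 67 listed symbols, 50 were found in the annotation, and 2 of these were marked in the conservative list and 5 in the combined list. These are 4% beside 2.82% of all genes, which is near that background, and 10% beside 3.64%. The conservative ones were erfa-1, for the release factor that ends translation at stop codons, with a signal of 86.7 at 376 bp upstream, and tufm-2, for a mitochondrial elongation factor Tu, with 85.7 at 229 bp upstream. In erfa-1 the replicates gave 47.6 and 37.2, and in tufm-2 they gave 43.0 and 36.4. Marked in the combined and not in the conservative list were iff-2, for an eIF5A protein, at 68.5 and 42 bp upstream, ifet-1, for an eIF4E-binding repressor, at 75.8 and 458 bp upstream, which was also in the list of replicate 1, and abcf-2, of the ABCF family of ATPases, at 76.1 and 909 bp upstream. None of the 7 genes of RNA polymerase III and its factors and none of the 15 genes of tRNA processing and modification was marked in any of the 4 lists. With so few genes, a count of 0 does not show a difference from the 2.82% and 3.64% of all genes. Their median ranked signals were 44.8 and 32.7.

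None of the 69 genes had an annotated tRNA gene in its window. Over all protein-coding genes 172 did, and 93 of those were marked in the conservative list. Among genes without a tRNA gene in the window, 471 of 19801 were marked, 2.38%, and the members' 5 of 69 stands beside this share as it does beside the 2.82% of all genes. No conservative member peak lay within 200 bp of a transfer, small nucleolar, small nuclear or ribosomal RNA gene.

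Words of the tRNA promoter and of other peaks were sought on both strands within 50 bp of each summit. GGTTCGA, the core of the inner promoter box B of tRNA genes, was in 16.4% of the 1092 conservative windows and in 2.90% of the 724 away from small noncoding RNA genes. It was in none of the 5 windows of the members, nor in the 13 of the combined list, where 14.3% of all 1368 windows held it. Neither was GTGGTTA, which 8.52% of all conservative windows and 7.89% of all combined windows held. It was in 3.59% of the conservative windows away from small noncoding RNA genes. TGGCNNAGT, the core of box A, was in 7.33% of the conservative windows and TCGGCCA in 7.42%. Each of these words was in 6.49% of the windows away from small noncoding RNA genes. In the combined list TGGCNNAGT was in 6.51% of all 1368 windows and TCGGCCA in 6.58%. Away from small noncoding RNA genes these shares were 5.72% and 5.62%. Of the members' 13 combined windows, that of yars-2 held both. There they overlap in the capitals of the yars-2 sequence shown at the start, 19 to 27 bp upstream of the gene, since TCGGCCA read on the other strand begins with TGGC. A second TCGGCCA runs across the 5′ end of yars-2. In windows from 250 bp upstream to 50 bp downstream of the outermost 5′ end, TGGCNNAGT was in 1 of 69 members and 2.17% of all protein-coding genes, and TCGGCCA in 1 of 69 and 2.13%. A match is a description of letters and not a site.

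The G and C content within 50 bp of the summit varied widely among the members. In the conservative list it was 58.4% at ears-2, 49.5% at eif-3.I, 43.6% at gars-1, 37.6% at ife-3 and 36.6% at eef-1A.1. The median of all conservative peaks was 49.5%, and the nuclear genome had 35.4%. Of these 5 windows only that of ears-2 was above the median of the peaks. In the combined list 6 of the 13 member windows were above this conservative median, and the median of all combined peaks was not computed. Besides ears-2 these were yars-2 at 53.5%, eef-1G at 52.5%, eif-1.A at 51.5% and both eif-3.B and eif-2Bgamma at 50.5%. The lowest of the 13 was fars-3 at 30.7%.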

How the data were processed

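Peak lists of 2 ChIP-seq replicates of 1 group were analysed, with no comparison between conditions. Per the deposited README texts, the lists are on ce11 and derive from alignments and a further file. How reads were aligned, duplicates treated and peaks called is not given in the sources used here. The peak signal is the authors' deposited value. The score of the deposited lists is a multiple of the −log2 of the IDR up to 1000, within 1 for all 104189 ranked peaks. The −log10 of the global IDR is a column of the deposited ranked lists. Signals at a peak in a replicate are the highest overlapping peak in that sample's own ranked list. The 2 signal columns of the shared ranked list do not name a replicate. They were used only as alternatives, for the eef-1A.2 peak and, to compare with the replicates, at the ears-2 peak.

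Genes came from Ensembl release 115, and 97.3% of the protein-coding genes shared a start or end with RefSeq. Counting used Python 3.11.15 with pandas 2.3.3 and numpy 2.4.6, and was tested on planted peaks. No read counts are given, so depth is unknown. The genes, lists, words and alternatives were chosen with earlier results of these data known. Named are all genes in a thresholded list, and of the others the 5 highest and 3 lowest in ranked signal and the highest of each subgroup. The further genes of a family or amino acid pair named beside these were chosen after their values were seen. Related genes are named where a conservative or combined summit lies in their window, and 17 of the listed symbols were not in the annotation. Alternatives were other lists, IDR limits, windows, 5′ ends, gene assignments, peaks near noncoding genes left out, and peak overlap. The combined list with the narrower window was added after the data were seen.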

Additional observations from a re-analysis of the deposited data

How the results depend on the processing

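The 5 genes of the conservative list were also the 5 at an IDR of 0.01 or lower, with the nearest 5′ end only, and without peaks near tRNA or other small noncoding RNA genes. These settings could change little. The conservative peaks reach an IDR of 0.01, so that limit gives nearly the same list. The setting of the nearest 5′ end could only remove genes. No conservative member peak lay within 200 bp of a tRNA or other small noncoding RNA gene, so leaving such peaks out could not lower the count. Wider windows or peak overlap added eif-3.G, and outermost 5′ ends lost eif-3.I. The combined list gave 12 genes, or 17.4%. An IDR limit of 0.05 gave 14 genes, 20.3% of them and 6.78% of all genes. An IDR limit of 0.1 gave 16 genes, 23.2% and 10.8%. The narrower window gave 1 gene, 1.45% and 1.79%, and with the combined list 6 genes, 8.7% and 2.24%. Single replicate lists gave 1 to 3 genes, 1.45% to 4.35%, and 0.861% to 1.4% of all genes. In replicate 1 this leaves ears-2 and adds fars-3 and eif-2Bgamma, and in replicate 2 it leaves ears-2 alone. The median ranked signal was 27.8 and 19.2 in the single library columns, beside 21.4 and 18.3 for all genes. The 5 other settings of this median gave values from 39.3 to 47.8. Unknown depth, 2 replicates and the lack of an untagged sample limit every value. No paired analysis was possible because there is 1 group and no test.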
